A study of Drosophila melanogaster with 12 samples.

Results

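Cuticle protein genes were followed in heads of adult Drosophila melanogaster over the first 2 days after a daily temperature cycle had ended. Members were all genes on the array whose current symbol begins with Cpr and a digit, Ccp84A, Lcp, Pcp, Acp65A or Edg, each read from 1 probe set that carries this symbol alone, and where a gene had more than 1 such probe set the one with the highest mean was taken. This gave 72 genes, from 74 probe sets, out of 10843 genes with a single symbol on the array, while 99 genes of the RefSeq gene table have symbols of this form. Of the 72 genes, 58 were Cpr genes, 4 were Ccp84A genes, 5 were Lcp genes, 3 were Edg genes, and Pcp and Acp65Aa were 1 each.

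The flies were of the cn bw strain, which carries mutations in the eye pigment genes cinnabar and brown and is wild type for the clock. They grew in darkness at 25 °C up to the early pupal stage and were then moved to 12 h at 18 °C alternating with 12 h at 25 °C, on which newly eclosed adults stayed for 4 further days before release into constant 25 °C. Each of 12 arrays held RNA of pooled heads from 1 time point, and the time points lay 4 h apart between AA2 and AA46. AA0 marks the start of the subjective cryophase, in which it had been cold before, and the hours from 12 to 24 form the subjective thermophase. Each of 6 times of day was thus sampled by 2 arrays, 1 of day 1 (AA2 to AA22) and 1 of day 2 (AA26 to AA46), and no group was left on the cycle or in light. All values are log2 levels after robust multi-array averaging (RMA), so a difference of 1 is a 2-fold change. As the samples were bulk heads, fewer cells of a type and less RNA per cell cannot be told apart.

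Insect cuticle is a layered sheet of chitin fibres and protein that the epidermis secretes at each moult. Most Cpr proteins carry the Rebers and Riddiford consensus, a stretch that binds chitin, and each gene is named for the band of the polytene chromosomes at which it lies, so that genes sharing a number and letter sit in 1 cluster. Larval (Lcp), pupal (Pcp) and adult (Acp) cuticle proteins were named for the stage at which they were found, and the Edg genes for their dependence on ecdysone, the moulting hormone. In the adult head, cuticle forms the capsule, the bristles, the mouthparts and the corneal lenses of the compound eye.

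One array, AA46, differed from the rest. Its mean correlation with the remaining arrays, over all probe sets, was 0.992, whereas no other array was under 0.996, and its 3 control probe sets for 18S ribosomal RNA lay at 4.09 log2, against 2.78 to 2.99. Many of the results that rest on it are given below with and without that array. Photoreceptor markers had mean levels between 11.45 and 11.73 log2 over the arrays, but 2 of 5 neuronal markers on the array, elav and para, did not pass the filter on low values, whereas 6 of 6 digestive and 6 of 8 reproductive markers did.

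Nearly all cuticle protein genes gave values above the lower part of the array's range. In 66 of the 72 genes (91.7%) more than 50% of the 12 values exceeded the 20th percentile of their array, which lay at 4.05 to 4.12 log2, against 79.9% of all 13966 probe sets that are not controls. All 12 values did so in 63 genes. The other 3 that passed were Cpr49Ab with 11 such values, at 4.02, 4.27 and 4.72 log2 for its lowest, median and highest array, Cpr65Ec with 9, at 3.95, 4.14 and 4.49, and Cpr65Az with 9, at 3.91, 4.14 and 4.23. Nearest on the other side of the cut-off were Cpr92F, with 1 value above it and a range of 3.70 to 4.11 log2, Cpr49Ah, with 0 and a range of 3.11 to 3.67, and Lcp65Af, with 0 and a range of 3.14 to 3.57. Cpr47Ec (2.79 to 3.43), Edg78E (2.69 to 3.18) and Cpr67Fa2 (2.23 to 2.57) also had no value above it. A probe set shared by Cpr67Fa1 and Cpr67Fa2, which was not counted, had all 12 values above it. With the cut-off moved up to the 40th percentile the share was 63.9% of the cuticle protein genes and 59.7% of all probe sets. Higher up the order turned. Of the 66 genes that passed, 30 (45.5%) had a mean above the mean array median, against 62.7% of all probe sets that passed. Their median level was 5.58 log2, against 6.12. A signal above either cut-off does not by itself show a transcript, since a probe set also takes up unspecific hybridization. The array files used here hold no detection call.

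The levels of the 66 genes that passed moved little over the 12 arrays. Their SD over the arrays had a median of 0.099 log2, the same as over all 11156 probe sets that passed, and ran from 0.046 to 0.28. The range from the lowest to the highest array was over 0.5 log2 in 8 genes (12.1%, against 14.6% of all) and over 1 log2 in 1 gene, Cpr72Ec. Most of the genes shared the array on which they were highest, and the heat map of deviations shows this as a column.

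**Figure D1:**
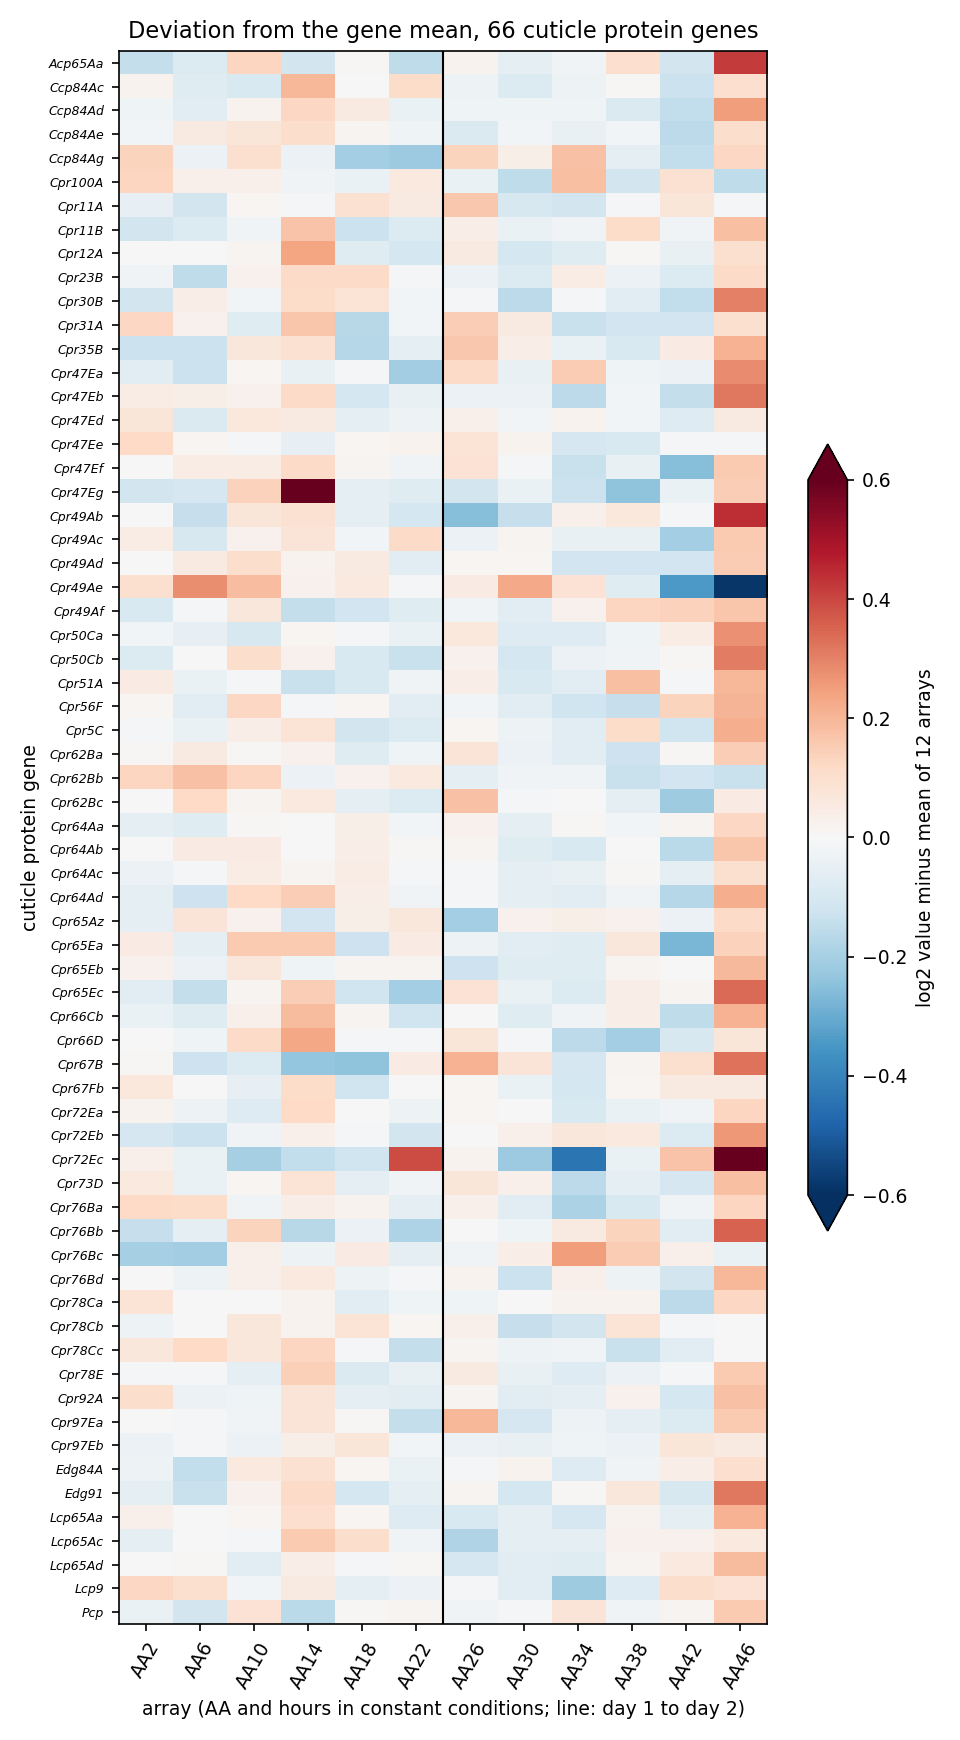
Each row is 1 of the 66 cuticle protein genes, each column 1 array in order of collection, and colour gives the log2 value minus the mean of the gene over its 12 arrays (red above, blue below, saturated at 0.6). The AA46 column is red in most rows, with Cpr49Ae as the deepest blue cell, and AA14 holds a paler red column with Cpr47Eg as its darkest cell.

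Genes of the larval, pupal and adult classes are described first. In the Lcp65A cluster, which encodes larval cuticle proteins, Lcp65Aa lay at 7.03, 7.13 and 7.34 log2 for its lowest, median and highest array, Lcp65Ac at 5.95, 6.12 and 6.29, and Lcp65Ad at 4.79, 4.89 and 5.08. The day 2 means of these 3 genes differed from the day 1 means by -0.06 to 0.01 log2. Acp65Aa, an adult cuticle protein gene of the same cluster, lay at 5.11, 5.22 and 5.68, and its highest value was that of AA46, with 0.46 log2 above the mean of the other 11 arrays. Lcp9, a larval cuticle protein gene elsewhere in the genome, spanned 4.91 to 5.25 log2, and Pcp, the pupal cuticle protein gene that lies within an intron of Gart, spanned 5.24 to 5.56. Of the ecdysone-dependent genes, Edg84A spanned 5.54 to 5.79 and Edg91 5.16 to 5.61, and both were highest on AA46. These genes had all 12 values above the cut-off, whereas Lcp65Af and Edg78E, of the same classes, had none.

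The Ccp84A genes lie among the Hox genes of the Antennapedia complex. Ccp84Ac had its lowest, median and highest values at 6.75, 6.87 and 7.08 log2, Ccp84Ad at 8.11, 8.23 and 8.51, Ccp84Ae at 8.31, 8.45 and 8.57, and Ccp84Ag at 6.60, 6.81 and 6.99. The probe set of Ccp84Ad is of a kind designed for a family of similar transcripts, so its signal may include other Ccp84A genes. Ccp84Ac, Ccp84Ad and Ccp84Ae were each lowest on AA42, and 3 of the 4 genes were lower on day 2, by 0.02 to 0.07 log2, whereas Ccp84Ag was higher by 0.09 ± 0.05 (SE). None of these differences was called (adjusted p of 0.502 or more, limma).

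The 4 genes of the Cpr64A cluster varied little. Cpr64Aa spanned 8.63 to 8.83 log2 with an SD of 0.05 (n = 12 arrays), Cpr64Ac 7.56 to 7.71 with an SD of 0.05, Cpr64Ab 6.29 to 6.62 with an SD of 0.08, and Cpr64Ad 6.49 to 6.88 with an SD of 0.11. All 4 were highest on AA46, by 0.11 to 0.24 log2 over the mean of the other arrays. Across the 12 arrays Cpr64Ab correlated with Cpr64Ac at r = 0.88 and Cpr64Ac with Cpr64Ad at r = 0.84, and without AA46 at 0.79 and 0.74. These are descriptions over the same arrays, and the points share each array's depth of signal and normalization.

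Members of a cluster followed each other over the arrays to differing degrees, which were described and not tested. The mean pairwise r was 0.70 in Cpr64A, 0.67 in Lcp65A and 0.38 in Ccp84A, and without AA46 it was 0.45, 0.64 and 0.29. In Cpr49A, with 5 genes, it was -0.00, and in Cpr76B, with 4 genes, 0.07, and without AA46 it was -0.03 and -0.11. Over all 24 pairs of direct neighbours in which both genes passed, r averaged 0.32, and 0.14 without AA46. Over all pairs of the 66 genes, neighbours or not, it averaged 0.30, against 0.01 for all tested probe sets, and it was 0.13 without AA46 and 0.09 without AA14 and AA46. Within Cpr72E, Cpr72Eb and Cpr72Ec correlated at 0.19 over the 12 arrays and at -0.70 without AA46, so the sign of this r turned with 1 array.

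Time of day was the first comparison, since the flies had been entrained by temperature alone. The 24-h score (F24) is the share of a gene's variance over the 12 arrays that a 24-h cosine carries, and the permutation p gives how often 100000 random time orders scored as high (one-sided). After adjustment over all 11156 tested probe sets, 0 of the 66 cuticle protein genes were called at adjusted p under 0.05, and the lowest was 0.299. Only 3 probe sets of the whole array (0.0269%) were called, all at 1e-05, the smallest p these permutations can give. By limma's F test of the same cosine and sine, 0 cuticle protein genes were called, against 33 probe sets in all (0.296%), and without AA46 it called 0 of them against 78.

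Unadjusted, 6 genes (9.09%) had a permutation p under 0.05, against 6.11% of all tested probe sets, and by the limma F test 3 genes (4.55%) did, against 5.64%. The fitted peak-to-trough ratio had a median of 1.06 over the 66 genes and 1.07 over all tested probe sets, and it was under 1.1 in 52 genes (78.8%, against 73% of all).

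Cpr72Ec, whose protein is among the main components of the corneal lens, had the largest ratio and the lowest p of the members. On day 1 it stood at 8.13, 8.06, 7.90, 7.95, 7.98 and 8.49 log2 at 2, 6, 10, 14, 18 and 22 h, and on day 2 at 8.12, 7.88, 7.66, 8.06, 8.27 and 8.70. On both days the lowest value was that of 10 h and the highest that of 22 h, near the end of the subjective thermophase. The fitted ratio was 1.55-fold, or 0.63 ± 0.14 log2 from trough to peak (SE), with the peak at 21.9 ± 0.83 h and a permutation p of 0.00083 (adjusted p = 0.299, and 0.0655 by limma's F test). Leaving out AA46, its highest array, gave a ratio of 1.42 and a permutation p of 0.00398, and leaving out each of the 12 arrays in turn gave ratios of 1.42 to 1.63 and p of 7e-05 to 0.00824. Cpr66D, another gene whose protein is found in the lens, lay at 6.14, 6.34 and 6.58 log2 for its lowest, median and highest array, with a ratio of 1.04 and a permutation p of 0.878.

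Cpr47Ee and Cpr49Ae, each of a cluster on the second chromosome, came next by ratio or by p. Cpr47Ee stood at 5.50, 5.39, 5.37, 5.33, 5.39 and 5.40 log2 over day 1 and at 5.46, 5.40, 5.28, 5.29, 5.37 and 5.37 over day 2. It was highest at 2 h on both days, with a ratio of only 1.10 (0.14 ± 0.03 log2), a fitted peak at 1.26 ± 0.86 h and a permutation p of 0.00222 (adjusted p = 0.354), and with each array left out in turn p stayed between 0.00072 and 0.014. Cpr49Ae stood at 7.37, 7.55, 7.46, 7.30, 7.33 and 7.26 log2 over day 1 and at 7.32, 7.50, 7.36, 7.20, 6.93 and 6.69 over day 2. Its highest value fell at 6 h and its lowest at 22 h on both days, and the fit gave 1.40-fold (0.48 ± 0.15 log2), a peak at 7.63 ± 1.2 h and a permutation p of 0.0112 (adjusted p = 0.585). AA42 and AA46 were the lowest of its 12 values, and without AA46 the ratio was 1.28 with a permutation p of 0.00488. With a linear trend over the collections removed, its permutation p was 0.0523 and its ratio 1.24.

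The other 3 genes at p under 0.05 had ratios of at most 1.13. Cpr50Ca had its lowest, median and highest values at 4.71, 4.78 and 5.08 log2, the last on AA46, with a fitted peak at 21.3 ± 1.4 h and a permutation p of 0.0184, and without AA46 the ratio went from 1.13 to 1.07 and p to 0.0759. Lcp65Ac, one of the larval genes, was highest on AA14 at 6.29 and lowest on AA26 at 5.95, with a ratio of 1.13, a peak at 15.9 ± 1.2 h and a permutation p of 0.0196, and without AA14 p was 0.0508. Cpr97Eb moved between 5.80 and 5.92 log2, with its highest value of each day at 18 h, a ratio of 1.07 and a permutation p of 0.0327, and p was 0.05 or more in 7 of the 12 fits that each left out 1 array. Without AA46, 7 genes had a permutation p under 0.05, against 7.2% of all probe sets tested there, among them Cpr49Ab (1.17-fold, p = 0.0235) and Ccp84Ag (1.22-fold, p = 0.0403), which were at 0.494 and 0.107 with all 12 arrays.

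The 10 largest ratios also took in genes whose permutation p was not under 0.05. Cpr67B had 1.22-fold (p = 0.116 by permutation), with p = 0.0107 once the day means were removed and 0.00565 with a linear trend removed. Without AA46, its highest array, it had 1.16-fold with a permutation p of 0.227. Cpr76Bc had 1.17-fold (permutation p = 0.0906), with 0.0231 and 0.0264 after the same removals and 0.121 without AA46. With the day means removed 9.74% of all tested probe sets had a permutation p under 0.05, and with the trend removed 6.63%. With neither removed the share was 6.11%. Cpr47Eg had 1.15-fold (permutation p = 0.696). Cpr31A moved between 5.16 and 5.49 log2, the latter on AA14, with 1.14-fold (permutation p = 0.166), and without AA14 it had 1.23-fold with p = 0.00129.

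**Figure D2:**
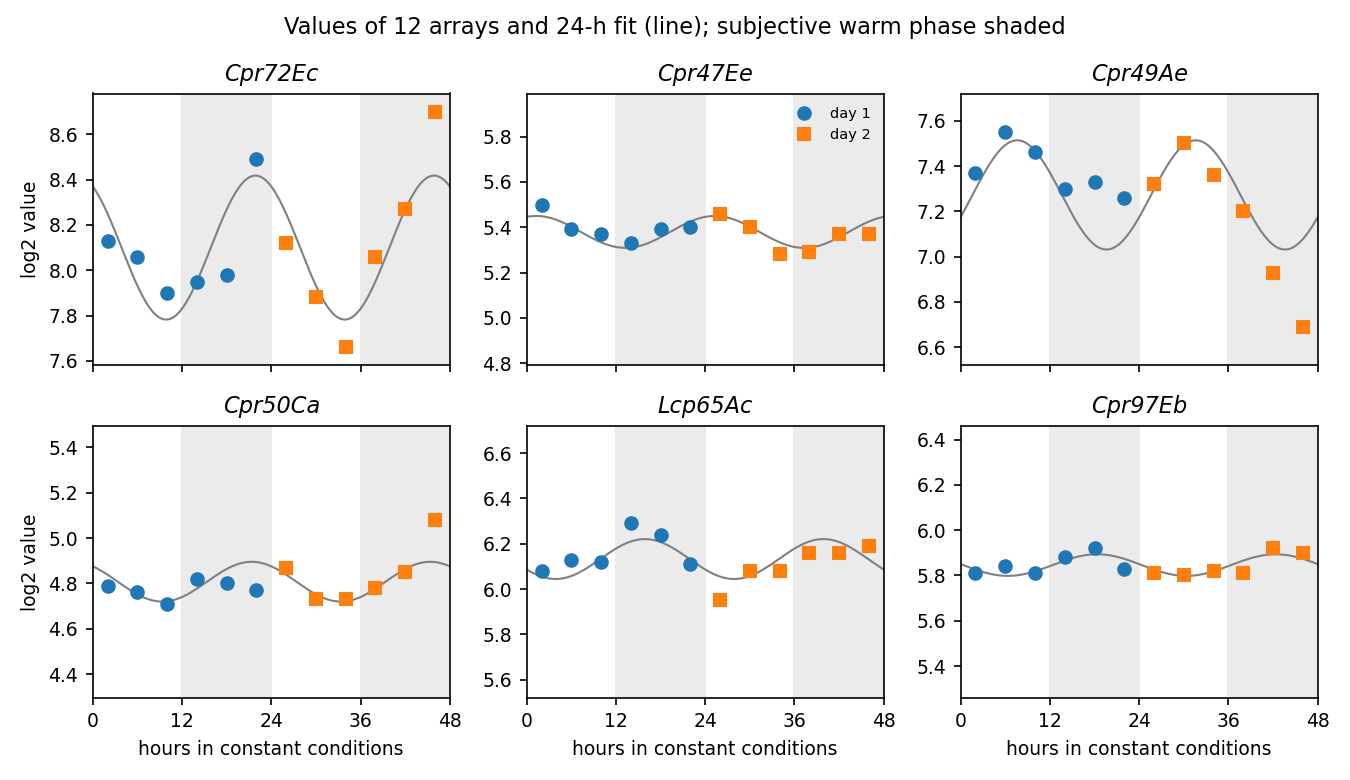
Points are the log2 values of the 6 genes with a permutation p under 0.05 on day 1 (circles) and day 2 (squares) against hours in constant conditions, the line is the fitted 24-h cosine, shading is the subjective thermophase, and every panel spans 1.2 log2. Cpr72Ec is highest at 22 h on both days, at 8.49 and 8.70, while Cpr49Ae lies lowest at AA46 with 6.69 and Cpr97Eb hardly leaves 5.80 to 5.92.

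Fitted peaks leaned towards the second part of the subjective thermophase, and this lean rested on 1 array. Of the 66 genes, 46 (69.7%) had a fitted peak between 12 and 24 h, against 55.6% of all tested probe sets, and 37 (56.1%) between 16 and 24 h, against 41.3%. Without AA46, which was collected at 22 h, 33 genes (50%) peaked between 12 and 24 h, against 54.8% of all, and 17 (25.8%) between 16 and 24 h, against 38.4%.

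Most cuticle protein genes were highest on AA46. This held for 43 of 66 genes (65.2%), against 25.1% of all tested probe sets, and 58 of 66 (87.9%) lay above the mean of their other 11 arrays, against 56.8% of all. The median excess on AA46 was 0.17 log2 over the cuticle protein genes and 0.03 over all tested probe sets, but it was 0.16 over the 27 tested genes of other cuticle protein families and 0.09 over 25 chitin genes, so it is not shown to be particular to these genes. It was not confined to a level. For genes with means of 4 to 5, 5 to 6, 6 to 7 and 7 to 9 log2 the median excess was 0.21, 0.16, 0.15 and 0.18 in 15, 23, 20 and 8 cuticle protein genes, and 0.08, 0.06, 0.02 and -0.03 over all tested probe sets in the same bins. The members with the largest excess were Cpr72Ec (0.65 log2), Cpr49Ab (0.48) and Acp65Aa (0.46), and the members furthest below were Cpr49Ae (-0.64), Cpr100A (-0.17) and Cpr62Bb (-0.15).

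AA46 was 1 array, so its time point, its collection and its hybridization cannot be told apart. Its 18S control signal was the highest and its correlation with the other arrays the lowest, as given above. The digestive markers also lay high on it, with a median excess of 0.17 log2 and a mean level of 6.22 (at most 6.11 elsewhere). The reproductive markers did too, with a median excess of 0.18 over the 6 tested and a mean level of 5.24 over all 8 (at most 5.16 elsewhere). The photoreceptor markers had a median excess of 0.14, but their mean level of 11.69 was under the 11.73 of another array, and chp lay at -0.17. The 3 neuronal markers tested had a median of -0.12, with nSyb at -0.35, Appl at -0.12 and brp at 0.10. The untested elav and para lay at 0.39 and 0.41. The part of these in the excess of the cuticle protein genes was not tested. Of the 4 muscle markers tested, up lay 0.92 log2 above its other arrays on AA46, while Mlc1, Mlc2 and Tm2 lay below theirs, and the list had a median of -0.07. At the same time of day on day 1, AA22, the cuticle protein genes had a median of -0.03, against -0.01 for all tested probe sets. On it 16 of 66 (24.2%) lay above the mean of their other arrays, against 47.1% of all. There 0 genes were highest, against 3.46% of all. The mean of the other arrays includes AA46, which was high for most of these genes.

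AA14 was the next highest array for these genes. On it 48 of 66 (72.7%) lay above the mean of their other arrays, with a median of 0.06, against 0.00 for all tested probe sets, and among the 11 arrays other than AA46 it was the highest for 26 genes (39.4%, against 13.5% of all). Cpr47Eg went furthest, at 6.81 log2 on AA14 against 5.95 to 6.34 on the others. The low end was shared less widely. AA42 was the lowest array of 13 genes (19.7%, against 10.1% of all), among them 3 of the 4 Ccp84A genes.

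**Figure D3:**
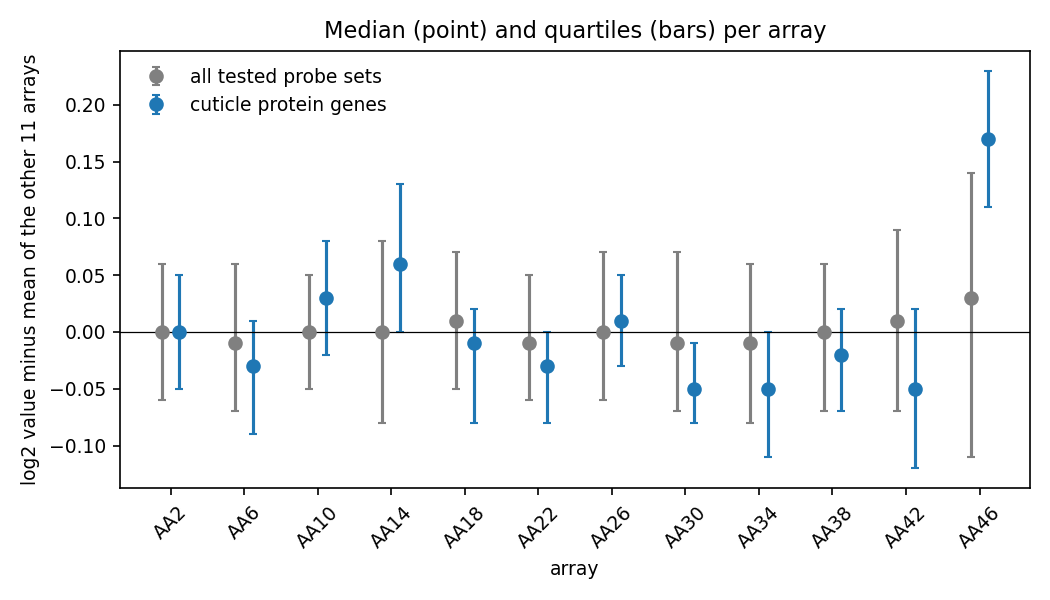
For each array the points give the median, over the 66 cuticle protein genes (blue) and over all 11156 tested probe sets (grey), of the log2 value minus the mean of the other 11 arrays, and the bars run from the lower to the upper quartile. The blue point of AA46 lies at 0.17 and that of AA14 at 0.06, while the grey points stay between -0.01 and 0.03.

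Day 2 was compared with day 1 to ask what drifts in constant conditions, with time of day as a block, by limma with adjustment over all tested probe sets. With this block, leaving out 1 array takes its pair out of the day difference. A day difference without AA46 thus rests on the pairs from 2 to 18 h. None of the 66 genes was called, 0 higher on day 2 (background 46 probe sets, or 0.412%) and 0 lower (134 probe sets, or 1.2%), and the lowest adjusted p was 0.0778. At an unadjusted p under 0.05 there were 5 genes (7.58%, against 14.8% of all tested probe sets), 3 higher and 2 lower on day 2. With array weights limma called 1 higher, Cpr67B, and 1 lower, Cpr62Bb, out of 450 probe sets called in that fit (4.03% of all), and with a trended, robust variance 1 higher, Cpr67B, out of 297 (2.66%). The differences had a median of -0.006 log2, against 0.002 for all tested probe sets, ran from -0.21 to 0.21, and lay within 0.1 log2 in 53 genes (80.3%, against 78.1%).

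Cpr67B had the lowest p of the members. It stood at 7.93, 7.80, 7.84, 7.69, 7.68 and 7.97 log2 from 2 to 22 h of day 1 and at 8.13, 8.00, 7.82, 7.94, 8.02 and 8.25 of day 2, higher on day 2 at 5 of 6 times of day and nearly level at 10 h. The difference was 0.21 ± 0.05 log2 (SE), a 1.16-fold difference with adjusted p = 0.0778, and without AA46 it was 0.19 ± 0.05 with adjusted p = 0.0665.

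Cpr62Bb lay lower on day 2 at all 6 times of day, as did Cpr49Ae, and these 2 genes were the only members of which that held (3.03%, against 4.4% of all tested probe sets). Cpr62Bb stood at 6.80, 6.85, 6.80, 6.64, 6.70 and 6.73 log2 over day 1 and at 6.62, 6.65, 6.65, 6.54, 6.56 and 6.54 over day 2, so that the days overlapped only at 6.64 to 6.65. Its difference was -0.16 ± 0.04 log2 (adjusted p = 0.0923). For Cpr49Ae, whose values are given above, the difference was -0.21 ± 0.07 log2 (adjusted p = 0.188), the 4 earlier pairs were close and the pairs of 18 and 22 h were wide apart, and without AA46 it was -0.14 ± 0.06. By the chosen probe sets, 0 of the 66 genes were higher on day 2 at all 6 times, against 5.38% of all tested probe sets.

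Other differences among the 10 largest were smaller than these or rested on 1 pair of arrays. Cpr76Bc, at 6.50 to 6.76 log2 on day 1 and 6.67 to 6.96 on day 2, differed by 0.14 ± 0.05 (adjusted p = 0.228) and was higher on day 2 at 5 of 6 times. Its neighbour Cpr76Bb differed by 0.15 ± 0.07, and without AA46, its highest array at 5.04 log2, by 0.07. Cpr47Ea, at 4.36 to 4.58 log2 on day 1 and 4.52 to 4.85 on day 2, differed by 0.15 ± 0.06 (adjusted p = 0.305), and without AA46 by 0.08. Cpr49Af, next to Cpr49Ae, went the other way from its neighbour, by 0.12 ± 0.06 (adjusted p = 0.34). Cpr65Ec and Cpr72Eb also differed by 0.12, each with AA46 as the highest array, and without it by 0.04 and 0.07. Cpr47Eg, in turn, had -0.14 ± 0.11, which was 0.01 without its high array AA14.

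**Figure D4:**
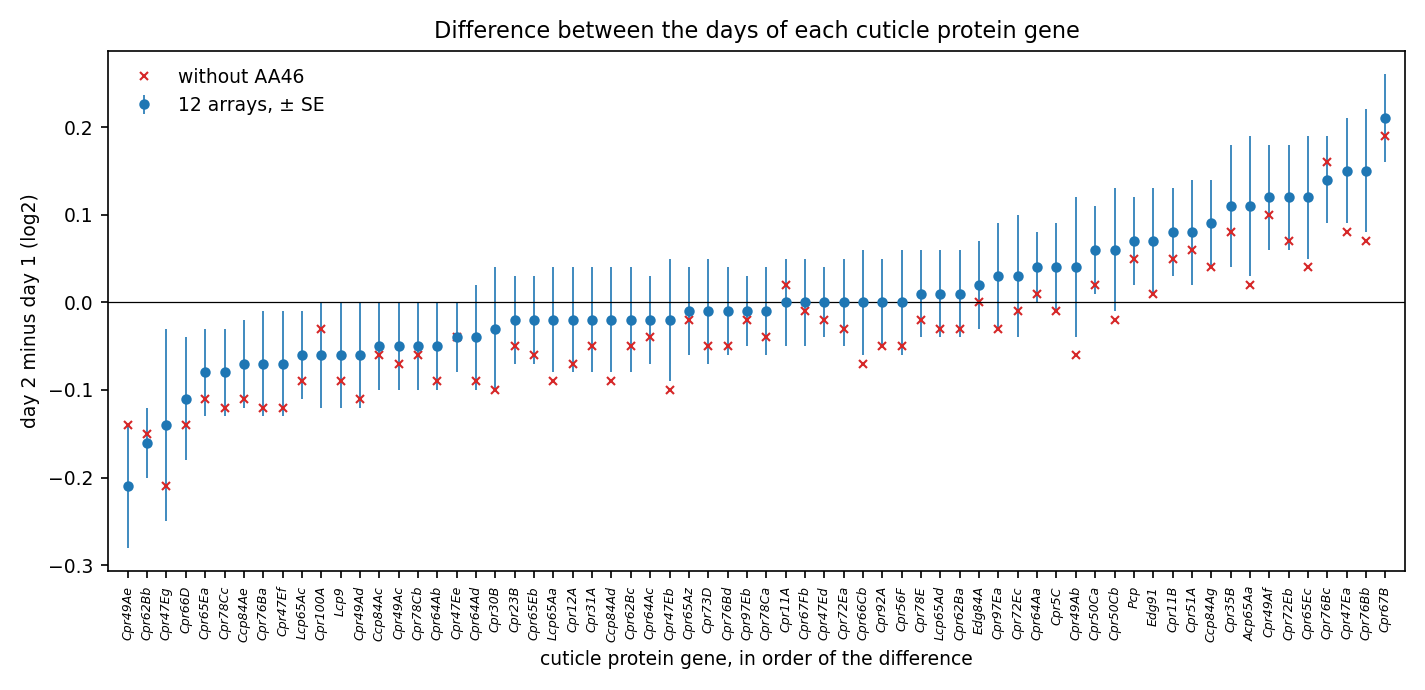
Each of the 66 cuticle protein genes is placed in order of its difference, with the log2 day 2 minus day 1 difference and its SE over 12 arrays (blue) and the same difference without AA46 (red cross). Blue points run from -0.21 for Cpr49Ae to 0.21 for Cpr67B, and most red crosses lie below the blue points and below 0.

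The difference over the family as a whole leaned further below 0 without the last array, which takes out the 22 h pair. With all 12 arrays 26 of 66 genes (39.4%) were higher on day 2, against 51.1% of all tested probe sets. Taken pair by pair, the median difference of the 66 genes was 0.013, -0.018, -0.063, -0.091 and -0.030 log2 from 2 to 18 h and 0.187 at 22 h, the pair that AA46 belongs to. Without AA46, 49 genes (74.2%) were lower on day 2, against 51.5% of all, with a median of -0.039 log2, against -0.004. In that fit 10 genes had an unadjusted p under 0.05 (15.2%, against 20.9% of all), 8 of them lower on day 2, and 0 were called, against 3.4% of all probe sets tested there, with Cpr67B (0.0665) and Cpr62Bb (0.0748) at the lowest adjusted p. Among the lower ones were Cpr76Ba (-0.12 ± 0.05), Cpr78Cc (-0.12 ± 0.05) and Ccp84Ae (-0.11 ± 0.04). AA14 of day 1 was high for these genes, and its pair at 14 h had the lowest of the 6 pair medians. The part of AA14 in the lean was not tested. Markers of other cell types also differed between the days. Of 6 photoreceptor markers, 3 were called higher on day 2, against 0.412% of all tested probe sets. These were trpl (0.25 log2), trp (0.23) and inaD (0.23). Of 7 fat body and female markers, 2 were called lower (fit at -2.51 and Yp2 at -0.23), against 1.2% of all. In that list Yp1 and Yp3 were also lower (-0.11 and -0.20), whereas Fbp1, Fbp2 and Lsp2 were higher (0.09, 0.10 and 0.06). None of these other markers was called. The part of the markers in the differences of the cuticle protein genes was not tested.

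Other genes of cuticle building were read from lists for chitin, further cuticle protein families, tanning and ecdysone. Of 25 tested genes for chitin synthesis and turnover, 2 had a permutation p under 0.05, Cht5, a chitinase (1.09-fold, p = 0.00594), and verm, a chitin deacetylase (1.14-fold, p = 0.0231), and 0 were called for rhythm or between days. kkv, the chitin synthase of the epidermis, had a ratio of 1.09 (permutation p = 0.301) and a day difference of -0.02 ± 0.06. Of 27 tested genes of further families, 4 had a permutation p under 0.05, the Tweedle genes TwdlM (1.11-fold, p = 0.022) and TwdlK (1.11-fold, p = 0.0366) and the chitin-binding obst-E (1.23-fold, p = 0.0224) and Gasp (1.31-fold, p = 0.0457), and 0 were called. These compare with 6.11% of all tested probe sets at that p.

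The list for tanning held the calls of these lists. Of 22 tested, Mco1, a multicopper oxidase, had a 24-h ratio of 1.33, a peak at 16.7 ± 0.37 h and a permutation p of 3e-05 (adjusted p = 0.0797). By limma's F test its adjusted p was 0.0127. A part of Mco1 in tanning is not shown by these data. In the same list stw had a ratio of 1.03 (permutation p = 0.863). The gene yellow-d was called higher on day 2 by 0.22 ± 0.04 log2 (adjusted p = 0.0248 by limma, at 6 of 6 times). Of the enzymes that make the tanning precursors, ple, tyrosine hydroxylase, was lower on day 2 at all 6 times by -0.23 ± 0.06 log2 (adjusted p = 0.0978), and Ddc, dopa decarboxylase, differed by 0.08 ± 0.05. Among 10 genes of the ecdysone response, 6 were tested, 0 had a permutation p under 0.05 and 0 were called between days. EcR, the receptor, had a ratio of 1.05, and ftz-f1, a nuclear receptor on which Edg84A depends in the prepupa, did not pass the filter. The share that was highest on AA46 was 44% of the chitin genes, 48.1% of the further cuticle protein families, 22.7% of the tanning genes and 50% of the ecdysone genes, against 65.2% of the cuticle protein genes.

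Some cuticle protein genes had a second reading. A second probe set of Cpr73D gave 0.18 ± 0.05 log2 between the days, higher on day 2 at 6 of 6 times (adjusted p = 0.104), against -0.01 for the one chosen, and a second probe set of Cpr66D gave -0.13 ± 0.06, against -0.11. Probe sets shared by several genes were kept out of all counts. Among them, the one for Lcp65Ag1, Lcp65Ag2 and Lcp65Ag3 had its lowest, median and highest values at 6.56, 7.02 and 7.60 log2, highest on AA14, with a ratio of 1.32 (permutation p = 0.127). The one for Cpr65Av and Cpr65Aw stayed within 5.97 to 6.27, and the one for Ccp84Aa and Ccp84Ab had no value above the cut-off. The one for Cpr67Fa1 and Cpr67Fa2 had 12 values above it, at 4.68 to 5.21 log2, whereas the probe set of Cpr67Fa2 alone had none.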

How the data were processed

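The authors deposited 1 table of log2 expression values, computed by RMA (background subtraction, quantile normalization, median polish) from Affymetrix Drosophila Genome 1 arrays, 1 array for each of 12 collections of cn bw heads. Its version was not given in the sources used here. After quantile normalization a shift common to most transcripts cannot be seen, very low and very high values are drawn in, and the number of arrays limits the precision. Gene symbols of the platform annotation were brought up to date by gene identifier with RefSeq genes (assembly Release 6 plus ISO1 MT). Of 14010 probe sets, 12442 had 1 symbol, 327 several and 1197 none, and 44 were controls. Of 6 probe sets with several symbols that include a cuticle protein gene, none was counted. No coordinates or sequences were used here.

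Probe sets with more than 50% of values above the 20th percentile of their array were tested. Rhythm was tested by F24 with 100000 seeded time orders common to all probe sets, and as an alternative by a cosinor F test in limma 3.58.1 (R 4.3.3). The day difference came from limma (lmFit, eBayes), with the 6 times of day as blocks. P-values were adjusted by the Benjamini-Hochberg method over all tested probe sets, and a call is an adjusted p under 0.05. Other steps used Python 3.11.15, numpy 2.4.6 and pandas 2.3.3. The labels give no replicate numbers, scan dates or rearing batches, the day served as replicate, so p-values reflect only the spread among the arrays, which may be technical. The fits were tested on simulated data.

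Members and gene lists were chosen with earlier results of these data known. The genes singled out were those with a permutation p under 0.05, a day call, one of the 10 largest day differences or peak-to-trough ratios, or the 3 nearest each side of the filter, and up to 4 genes of each list by lowest p or a day call. Further members are given to describe their cluster, class or array and were picked after their values were seen. The same holds for kkv, ple, Ddc, stw, EcR and ftz-f1. Alternatives were other scalings, filters, probe set rules, weights and variance models, removal of day means or of a trend, and leaving out arrays.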

Additional observations from a re-analysis of the deposited data

How the results depend on the processing

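No cuticle protein gene was called for a 24-h rhythm under any of the alternatives. This says little about these genes, since the permutation alternatives called only 0 to 3 of all tested probe sets. The limma F test called 33 of them (0.296%). The count at an unadjusted p under 0.05, 6 by permutation, was 3 by the limma cosinor F test, 9 with the day means removed (the replicate block), 5 with a linear trend removed and 4 to 9 with each array left out in turn. Over all tested probe sets that share was 6.11%, and 5.64% by the F test, 9.74% with the day means removed, 6.63% with the trend removed and 4.77 to 7.2% with arrays left out. Between the days, array weights gave 1 gene higher and 1 lower, Cpr67B (adjusted p = 0.0431) and Cpr62Bb (0.0444), and a trended, robust variance gave 1 higher, Cpr67B (0.0406), in fits that called 4.03% and 2.66% of all tested probe sets, while leaving out arrays gave 0. The cause was not tested. For Cpr67B the adjusted p ran from 0.0515 to 0.212 over the fits without 1 array, and for Cpr62Bb from 0.0748 to 0.28. As each such fit loses a whole pair, the fits without either array of a time of day were nearly the same. The day difference of Cpr47Eg ran from -0.21 to 0.01 with each array left out in turn, and it was 0.01 without either array of 14 h. Over all values for single genes, 408 kept their direction and their side of the threshold, 12 passed it only under an alternative, 14 no longer passed it and 2 turned. Many of the 408 could not have changed. The permutation p of a gene does not depend on the filter, and a ratio has no direction. Either array of a pair left out gave the same day difference. The median excess on AA46 was 0.15 after centring each array on its median and 0.16 after quantile normalization, alternatives chosen after seeing the data. With 2 arrays per time of day and 1 per day, small differences were not resolved.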
